A study of Mus musculus with 20 samples.

Results

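SPC4955 is one of 4 antisense oligonucleotides that were given to mice to find out which liver genes each of them changes. The comparison described here sets 4 livers from mice given SPC4955 at 10 mg/kg against 4 livers from mice given saline. The members are all arrays whose treatment label reads SPC4955 or Saline, 8 of the 20 arrays in the series. The mice were female C57BL/6 animals weighing 20 ± 2 g (mean ± SD, per the labels), and no age is given. Each mouse was dosed into a vein on days 0, 1 and 2, and 1 array was made per liver. The labels place the end of the experiment on day 3 in one field and 4 days after the first dose in another. The other 3 oligonucleotides had 4 mice each, with SPC4061 and SPC3847 given at 10 mg/kg but SPC3833 given at 5 mg/kg, and entered the same statistical model.

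An antisense oligonucleotide is a short synthetic strand that binds RNA of complementary sequence by base pairing. Depending on its design, the bound RNA is either cut by the cellular enzyme RNase H or sterically blocked from splicing or translation. RNAs that carry a similar stretch of sequence by coincidence can be bound as well. The liver takes up a large part of an oligonucleotide given into the blood. The labels state neither the sequence nor the intended RNA of SPC4955, so no row could be examined as its target.

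The array values are log2 intensities of 22361 genes, each with 1 value per array, so a difference of 1 is a 2-fold change. Genes are identified by Ensembl number, which neither the files nor the gene table used here links to a gene symbol. Symbols, functions, positions and the marker genes of liver cell types are therefore not given, and the 2 largest falls and the 2 largest rises are named by identifier. Array medians lay between 6.40 and 6.50 with SPC4955 and between 6.40 and 6.48 with saline. The range between the quartiles of an array lay between 2.99 and 3.21 with SPC4955 and between 2.81 and 3.15 with saline.

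Replicate 1 of both groups stood apart. Replicate 1 of SPC4955 differed from the mean of its group's other 3 arrays with an SD of 0.314 over genes, and the other 3 SPC4955 arrays with SDs of 0.179 to 0.224. Replicate 1 of saline had an SD of 0.36, and the other 3 saline arrays had SDs of 0.198 to 0.217. Both arrays departed mainly upward. In SPC4955 replicate 1, 164 genes lay at least 1 log2 unit above the highest of the other 3 SPC4955 arrays, and 9 lay as far below the lowest. In saline replicate 1, 214 genes lay that far above the other saline arrays and 7 that far below. Among the other arrays of both groups, no array had more than 14 such high genes.

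The high genes were largely shared between these 2 livers. In 136 genes both replicates 1 exceeded their own group by at least 1, and in all 136 both also lay above each of the other 18 arrays of the series. No gene lay at least 1 below the lowest of the other 3 arrays in both groups. The median excess over these 136 genes, taken against the mean of the group's other 3 arrays, was 2.12 in SPC4955 replicate 1 and 2.84 in saline replicate 1. The largest excess was 7.39 in SPC4955 replicate 1 and 7.28 in saline replicate 1. Saline replicate 1 had the larger excess in 122 of the 136 genes. Because 1 such liver fell in each group, the excess widened the spread of both groups and raised both means. The SPC4955 minus saline difference of these genes lay between -0.62 and 0.85, none of them passed the threshold of the comparison, and 2 had an unadjusted p below 0.05. In bulk liver RNA, a different share of cells of some type and a different amount of RNA per cell cannot be told apart. What these genes have in common was not tested, because they could not be named.

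**Figure D1:**
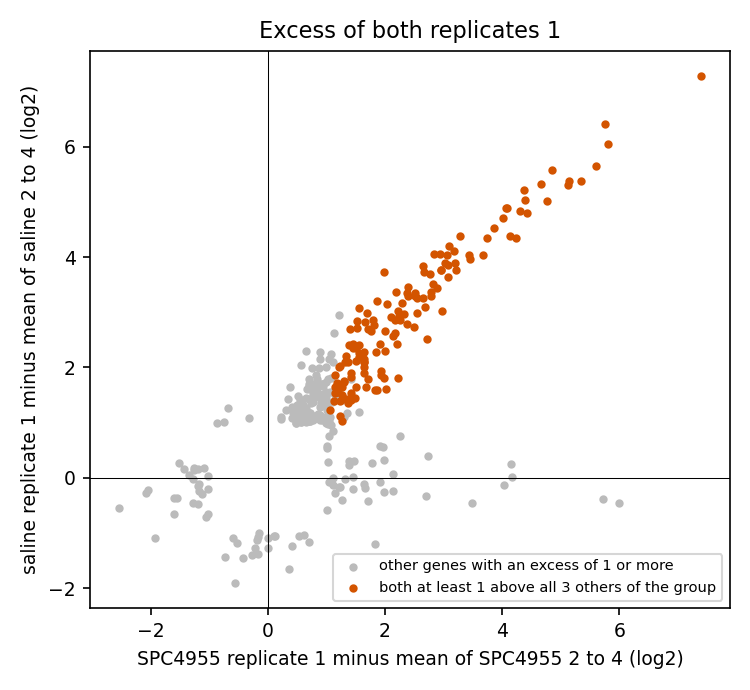
Excess of SPC4955 replicate 1 (horizontal axis, log2 units) against that of saline replicate 1 (vertical axis, log2 units), each over the mean of replicates 2 to 4 of its group, for genes with an excess of 1 or more in size in either array. The 136 genes high in both livers (orange) rise along a diagonal up to 7.39 in SPC4955 and 7.28 in saline.

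With SPC4955 the large changes were falls and the small ones mostly rises. A linear model (limma) over all 20 arrays called a gene changed when its Benjamini-Hochberg adjusted p over all genes was below 0.05. By this rule 943 genes rose and 530 fell, 4.22% and 2.37% of the genes tested and 6.59% together. Below 0.5 on the log2 scale, 769 genes rose and 259 fell, so that 74.8% of the calls in this band were rises. Between 0.5 and 1 the calls were 155 rises and 194 falls. Between 1 and 2 they were 19 rises and 70 falls. At 2 or more, a 4-fold change, there were 7 falls and 0 rises, the largest mean rise at any p being 1.97. Of these 7, 2 exceeded 8-fold and 1 exceeded 16-fold. Over all 22361 genes the median difference was 0.011.

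The lean toward rises among all calls depended on how arrays were scaled and which were fitted, while the lean toward falls among large changes held under every setting tried. Rises made up 64% of all calls as reported, 51.3% once arrays were centred on their medians (439 rises and 416 falls), and 50.9% once their quantiles were equalised (753 rises and 727 falls). Fitting the 8 arrays alone gave 51.6% (339 rises and 318 falls). Among calls below 0.5, rises remained the majority in these settings. Their share there was 66.8% with medians centred, 58.9% with quantiles equalised, 68.6% with the 8 arrays alone and 79.8% without both replicates 1. Single arrays also moved the number of rises. It was 565 when SPC4955 replicate 2 was left out, 614 when SPC4955 replicate 4 was left out, and 535 when saline replicate 4 was left out. In the band from 1 to 2, the counts were 17 rises and 73 falls with medians centred, 17 rises and 74 falls with quantiles equalised, and 13 rises and 66 falls with the 8 arrays alone. Without both replicates 1, all calls were 928 rises and 427 falls. They were partly other genes, as 664 of the 943 rises and 378 of the 530 falls were still called. In that fit the band from 1 to 2 held 15 rises and 72 falls, and the band of 2 or more held 1 rise and 7 falls. The rise in that last band is ENSMUSG00000034774, at 2.01. Of the bands, that from 0.5 to 1 turned there, with rises making up 55.8% of its calls against 44.4% with all arrays.

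**Figure D2:**
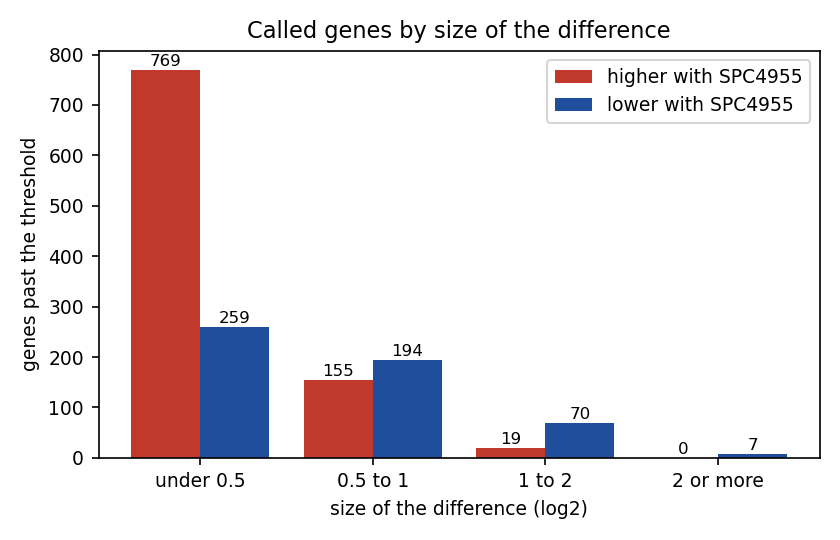
Number of genes past the limma threshold (vertical axis) by size of the SPC4955 minus saline difference in log2 units (horizontal axis), for genes higher (red) and lower (blue) with SPC4955. Rises outnumber falls 769 to 259 below 0.5, and falls outnumber rises 70 to 19 between 1 and 2.

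**Figure D3:**
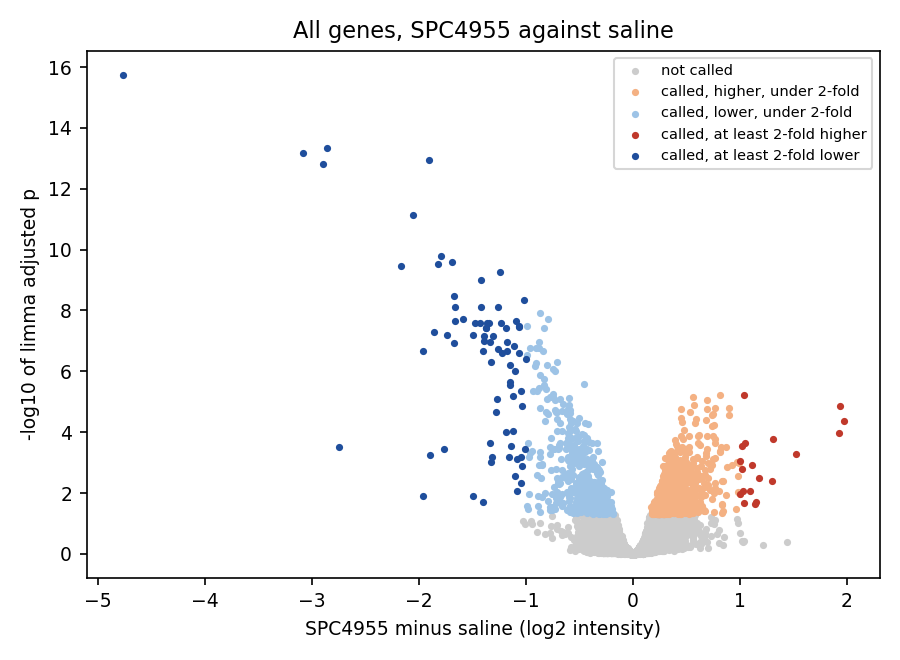
SPC4955 minus saline difference in log2 intensity (horizontal axis) against -log10 of the limma adjusted p (vertical axis) for all 22361 genes, coloured by call. The falls reach -4.77 and the rises 1.97.

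Calls were concentrated among brighter genes. Genes were divided into 4 equal bins by their mean over all 20 arrays. In the dimmest bin, up to a level of 5.08, 0.411% of genes rose and 0.125% fell. In the brightest bin, from 8.07 upward, 9.07% rose and 5.4% fell. The falls of at least 2-fold numbered 0, 3, 31 and 43 from the dimmest bin to the brightest, and the rises of that size 2, 3, 9 and 5. At an unadjusted p below 0.05, 0 genes of the dimmest bin were at least 2-fold lower by limma. Signal over background is not known for these values, so a low count among dim genes does not show that their RNA was unchanged. In the brightest 1% of genes, 224 genes with a mean level of at least 12.00, 16 fell (7.14%) and 12 rose (5.36%). The shares were 5.4% and 9.07% in the brightest bin, and 2.37% and 4.22% over all genes.

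The 77 genes that fell at least 2-fold (0.344% of all genes) were low in every SPC4955 liver. Their median difference was -1.33, a 2.52-fold fall, beside 0.011 over all genes. Their mean levels ran from 4.28 to 11.44 with SPC4955, with a median of 7.15, and from 5.50 to 12.97 with saline, with a median of 8.66. In all 77 the highest SPC4955 array lay below the lowest saline array, where 3.72% of all genes showed that separation in this direction. The gap between the groups was at least 1 in 29 of them and 0.05 in the narrowest. The limma adjusted p was below 0.001 for 70 of the 77. These genes were chosen by the same contrast, so their levels and gaps describe the list and do not test it.

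The 4 treated mice did not show these falls to the same extent. The median deviation of the 77 genes from the saline mean was -1.36, -1.51, -1.36 and -1.14 in SPC4955 replicates 1 to 4, and between -0.06 and 0.04 in the saline arrays. Replicate 4 was thus the least lowered and replicate 2 the most. Replicate 4 held the highest of the 4 SPC4955 values in 46 of the 77 genes and the lowest in 1. Replicate 2 held the lowest in 31 and the highest in 1. After quantile normalization replicate 4 was still highest in 44 of the 77, with a median deviation of -1.18. Replicate 4 also had the widest distribution of the 4 SPC4955 arrays, with a quartile range of 3.21, and the part of this width in the order was tested no further than by that normalization. In most of the lowered genes, levels also varied more among the SPC4955 arrays measured here than among the saline arrays. The SD was larger with SPC4955 in 59 of the 77 genes (76.6%), where the share over all genes was 45.8%. The median SD of the 77 was 0.218 with SPC4955 and 0.135 with saline, beside 0.12 and 0.129 over all genes. The wider spread was not particular to falls. Among the genes at least 2-fold higher the SD was larger with SPC4955 in 16 of 19 (84.2%). Genes of a list share the same 4 livers per group, so these shares do not count independent observations. Whether spread differs between treated and saline mice in general was not tested.

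**Figure D4:**
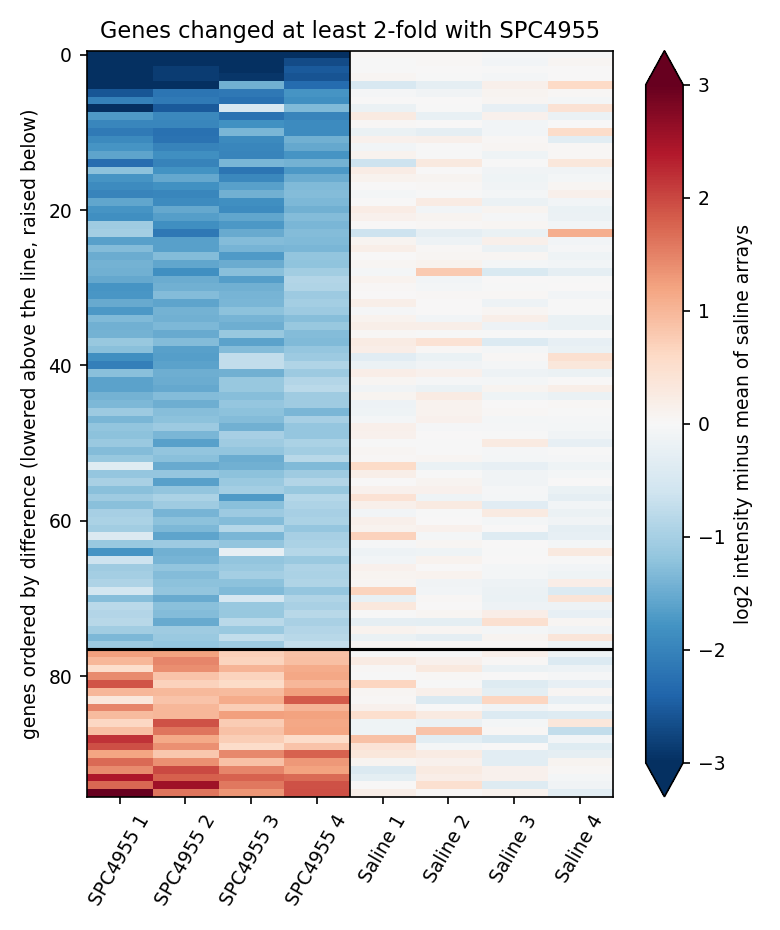
Log2 intensity minus the mean of the 4 saline arrays (colour, cut at 3 in either direction) for the 77 genes at least 2-fold lower (above the line) and the 19 at least 2-fold higher (below it), in the SPC4955 and saline arrays. The lowered genes are blue in every SPC4955 array, palest in replicate 4 with a median of -1.14.

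ENSMUSG00000028127 showed the largest fall. Its log2 intensity was 7.24, 7.20, 6.97 and 7.72 in the SPC4955 livers, against 12.09, 12.10, 12.01 and 12.03 in the saline livers. The groups were far apart, and replicate 4 of SPC4955 was the highest of the treated arrays. The difference was -4.77 ± 0.11 (SE), with a 95% interval from -4.99 to -4.55, a fall to between 23.4-fold and 31.9-fold below saline (limma adjusted p = 1.77e-16). The SE and interval rest on 1 spread for this gene, shared by all 5 groups. Its SD was 0.32 with SPC4955 and 0.05 to 0.11 in the other groups, so the interval does not reflect the wider SPC4955 spread. With the 8 arrays alone the limma adjusted p was 4.05e-07. In order of brightness the gene stood 8287th of 22361 genes with SPC4955 and 205th with saline. A level of 7.28 with SPC4955 is still above the median of every array. With the other oligonucleotides its 95% intervals against saline ran from -0.23 to 0.22 for SPC4061, from -0.30 to 0.15 for SPC3847 and from -0.44 to 0.01 for SPC3833.

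ENSMUSG00000001576 had the next largest fall. Its log2 intensity was 7.61, 7.39, 7.40 and 8.01 in the SPC4955 livers, against 10.68, 10.71, 10.61 and 10.75 in the saline livers. Replicate 4 was again the highest treated array, and every treated value lay more than 2 log2 units below every saline value. The difference was -3.08 ± 0.10 (SE; 95% interval from -3.29 to -2.87; limma adjusted p = 6.76e-14). This SE also uses the spread shared by all groups, while the SD was 0.29 with SPC4955 and 0.06 with saline. In order of brightness the gene stood 7261st with SPC4955 and 817th with saline. Its levels in the other 12 treated livers lay between 10.48 and 10.84, around the saline range of 10.61 to 10.75.

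The 19 genes that rose at least 2-fold (0.085% of all genes) had a median difference of 1.11, a 2.16-fold rise. Their mean levels ran from 5.21 to 10.93 with SPC4955 and from 4.17 to 9.93 with saline. In 16 of the 19 all SPC4955 arrays lay above all saline arrays, where 7.68% of all genes showed that separation in this direction, and in 3 the groups overlapped. The gap was at least 1 in 3 genes. As with the falls, the same contrast chose these genes, so their levels and gaps describe the list and do not test it. The median deviation of the 19 genes from the saline mean was 1.41, 1.37, 0.88 and 1.19 in SPC4955 replicates 1 to 4. Replicate 1 was the highest SPC4955 array in 9 of the 19 genes, and replicate 3 the lowest in 11. In 2 of the 19, replicate 1 lay at least 1 above the other 3 SPC4955 arrays. Without both replicates 1, 18 of the 19 still passed the threshold and 14 were still raised at least 2-fold, and of the 77 lowered genes 76 passed and 72 remained at least 2-fold lower. A further 5 genes had a mean at least 2-fold higher with SPC4955 without passing the threshold, and in all 5 replicate 1 lay at least 1 above the other treated arrays.

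ENSMUSG00000029372 had the largest mean rise with all arrays, and is 1 of the 2 genes in which replicate 1 stood out. Its log2 intensity was 8.70, 7.31, 7.04 and 7.63 in the SPC4955 livers, against 5.88, 5.75, 5.81 and 5.38 in the saline livers. The groups did not overlap with or without replicate 1. The difference was 1.97 ± 0.25 (SE; 95% interval from 1.44 to 2.50; limma adjusted p = 4.37e-05), and 1.62 without SPC4955 replicate 1. Behind this SE is the spread shared by all groups, while this gene had an SD of 0.73 with SPC4955 and 0.22 with saline. Its place ahead of ENSMUSG00000034774 rests on single arrays. Without SPC4955 replicate 1 that gene rose by 2.01, and its rise was also the larger without both replicates 1, without saline replicate 2 or 4, and with array quality weights. In order of brightness it stood 7035th with SPC4955 and 14323rd with saline.

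ENSMUSG00000034774 had the other of the 2 largest rises. Its log2 intensity was 7.29, 8.12, 7.15 and 7.47 in the SPC4955 livers, against 5.57, 6.06, 5.19 and 5.46 in the saline livers. Replicate 2 was the highest in both groups, and the groups did not overlap. The difference was 1.94 ± 0.23 (SE; 95% interval from 1.46 to 2.41; limma adjusted p = 1.39e-05). With SPC4061 this gene was at 7.94, 7.60, 7.69 and 7.54, within the range of the SPC4955 arrays. The SPC4955 minus SPC4061 difference was -0.19, with a 95% interval from -0.66 to 0.29 (limma adjusted p = 0.72). Differences of up to 1.58-fold in favour of SPC4061 and up to 1.22-fold in favour of SPC4955 are inside the interval.

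**Figure D5:**
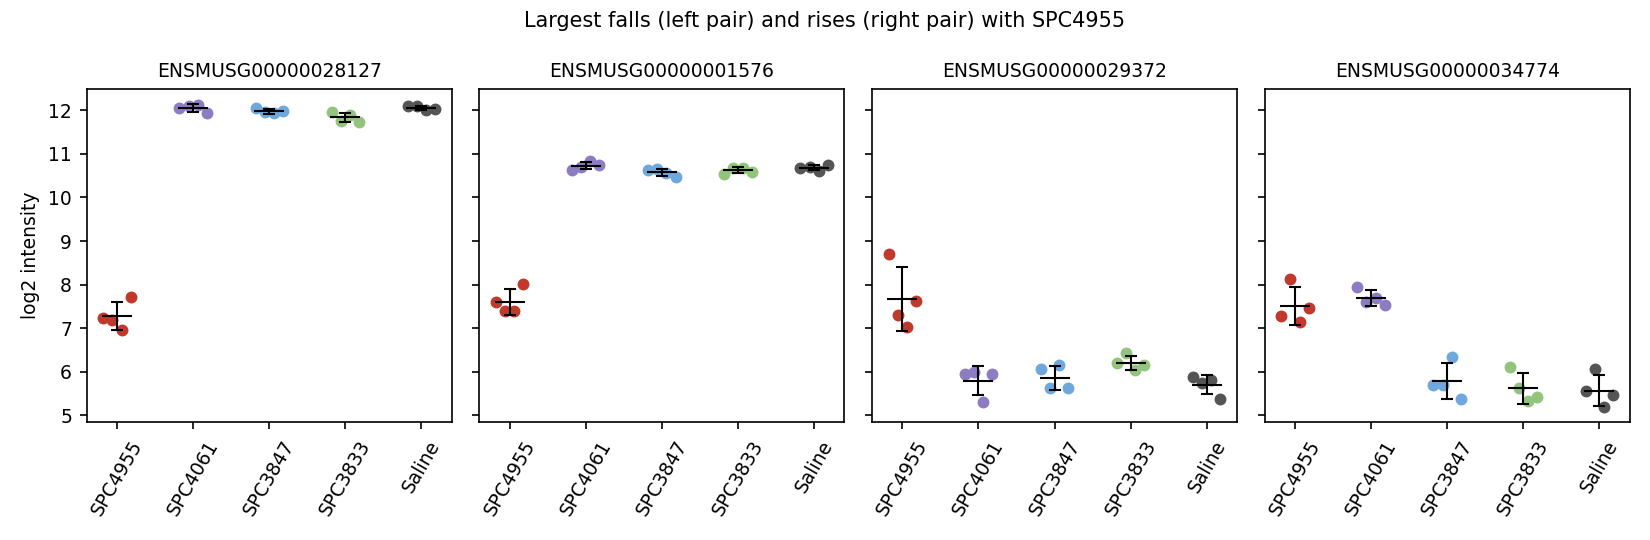
Log2 intensity (vertical axis) of the 2 largest falls and the 2 largest rises in each of the 20 arrays, by group, with mean and SD (black bars, n = 4). ENSMUSG00000028127 and ENSMUSG00000001576 are lower in the SPC4955 arrays than in all 16 others, with means of 7.28 and 7.60, and ENSMUSG00000034774 is high with SPC4955 and SPC4061, with means of 7.51 and 7.69.

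Direct tests between oligonucleotides showed that most of the falls were deeper with SPC4955 than with the others. At the same dose of 10 mg/kg, 72 of the 77 lowered genes were lower with SPC4955 than with SPC4061, where 5.17% of all genes were called in that direction. Against SPC3847, also at 10 mg/kg, 70 of the 77 were lower with SPC4955, where the share over all genes was 2.85%. SPC3847 replicate 4 differed from the rest of its group with an SD of 0.302 over genes, and no fit left it out. Against SPC3833, given at 5 mg/kg, 56 of the 77 were lower with SPC4955 (2.26% of all genes) and 2 were higher (3.56% of all genes). Dose and oligonucleotide cannot be told apart in the comparison with SPC3833. These tests share the 4 SPC4955 arrays that chose the genes, so an SPC4955 level that was low by chance would count in each of them.

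In the median, the same genes were closer to saline with the other oligonucleotides. All comparisons against saline share the 4 saline arrays, and each is given with its own values. The median difference of the 77 genes from saline was -0.19 with SPC4061, -0.13 with SPC3847 and -0.27 with SPC3833, beside medians over all genes of -0.015, 0.024 and 0.049. With SPC4061, 16 of the 77 also passed the threshold as lower, where 2.74% of all genes did, and 4 fell at least 2-fold (0.161% of all genes). With SPC3847, 6 passed (1.49% of all genes) and 1 fell at least 2-fold (0.125%). With SPC3833, 32 passed (3.35% of all genes) and 19 fell at least 2-fold (0.376%). The saline arrays that chose the 77 genes enter each of these counts, so nothing about shared responses is read from them. Among the 7 genes that fell at least 4-fold, all 7 were lower with SPC4955 than with SPC4061 and SPC3847, and 6 of the 7 were lower than with SPC3833. The remaining one was 0.58 higher with SPC4955 than with SPC3833.

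Of the 19 raised genes, 9 were higher with SPC4955 than with SPC4061 by the direct test, where 3.58% of all genes were called in that direction. Against SPC3847, 14 of the 19 were higher with SPC4955 (4.7% of all genes), and against SPC3833, 10 of the 19 (3.56% of all genes). The SPC4955 arrays that chose the 19 genes enter each of these tests. An SPC4955 level that was high by chance would therefore count in all of them. The median difference of the 19 genes from saline was 0.62 with SPC4061, 0.20 with SPC3847 and 0.38 with SPC3833, and the same saline arrays chose these genes. As higher than saline, 9 of the 19 passed the threshold with SPC4061 (8.73% of all genes), 4 with SPC3847 (1.84%) and 4 with SPC3833 (3.71%). A rise of at least 2-fold was reached by 6 of the 19 with SPC4061 (0.161% of all genes), 1 with SPC3847 (0.0134%) and 3 with SPC3833 (0.0268%).

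The number of arrays set the precision. The median SE of a difference between SPC4955 and saline was 0.0949 on the log2 scale, and the median 95% interval reached 0.199 to either side of the difference. A gene of typical spread whose measured difference was smaller than this had an interval that included 0.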

How the data were processed

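The authors deposited log2 intensities, 1 per Ensembl gene identifier and array. Total RNA was labelled with the Affymetrix whole-transcript sense-target assay, per the labels' protocols, and the affy package was used, per the submitters' processing notes. How background was corrected and arrays were normalized is not given in the sources used here; the log2 scale was read from the values. limma 3.58.1 in R 4.3.3 was fitted to all 20 arrays with a mean per group (15 residual degrees of freedom). Each gene had 1 spread, taken as equal in all 5 groups. There was no filter and no further scaling, and p was adjusted by Benjamini-Hochberg over 22361 genes. The fit was checked on simulated data with equal spread in all groups and no array-wide shifts or outlying arrays. That check does not cover those features of the real arrays. Alternatives covered scaling, dim genes, arrays fitted or weighted, the prior, a replicate block and array width. Replicates are labelled as biological, and no batch is labelled. The rule named 15 rises and 15 falls and members of 31 gene lists by symbol, and in every case Apob, Abcd3 and Ergic1. None of the 22361 identifiers could be matched to a symbol, so its fallback was used: the 2 largest rises and 2 largest falls past the threshold whose groups did not overlap. No symbol list was tested. The arrays compared, the lists and the tests were chosen with earlier results of these data known. The counts per size band were a choice made after seeing the data.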

Additional observations from a re-analysis of the deposited data

Results flagged for a closer look

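Samples far from the other 3 of their group were sought in 32 groups of 4 values with Dixon's ratio, which flags about 1 in 20 groups by chance. In both groups the number of genes at least 1 log2 unit above the rest of the group set replicate 1 apart, with 164 genes in SPC4955 replicate 1 and 214 in saline replicate 1. The SD over genes from the own group also set saline replicate 1 apart, at 0.36. ENSMUSG00000029372 was low in SPC4061 replicate 3, at a log2 intensity of 5.30 against 5.95 to 5.99 in the other SPC4061 arrays. Without both replicates 1, the reported numbers of genes changed at least 2-fold were 16 higher and 79 lower, against 19 and 77 with them.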

How the results depend on the processing

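Of the 17 alternatives, none turned the direction of the 4 named genes against saline or moved them out of the calls. Their differences ranged from -4.92 to -4.67 for ENSMUSG00000028127, from -3.22 to -3.01 for ENSMUSG00000001576, from 1.62 to 2.18 for ENSMUSG00000029372 and from 1.73 to 2.10 for ENSMUSG00000034774, with adjusted p up to 0.00952. Of the 12 direct tests of these genes against other oligonucleotides, 11 passed as reported and under each of the 6 alternatives run. The number of genes higher at any size was 439 after median centring. With only the 8 arrays, which leaves fewer samples, 339 were higher and 318 lower. With the quartile range as a covariate 864 were lower, and the number at least 2-fold higher was 12; the cause was not tested. Leaving out 1 array gave 535 (without saline replicate 4) to 1020 (without SPC4955 replicate 1) genes higher and 382 to 522 lower, with 565 higher without SPC4955 replicate 2 and 614 without SPC4955 replicate 4. At 2-fold or more it gave 13 to 25 higher and 65 to 86 lower. Deviations of same-numbered arrays of the SPC4955 and saline groups correlated at 0.517, 0.122, 0.384 and -0.193. The own number was the best match for 2 of the SPC4955 arrays. With so few arrays per group, these values cannot decide whether the replicate numbers pair the samples. A replicate block gave 798 higher and 488 lower. The 96 genes changed at least 2-fold kept their direction under each alternative that fitted them; without the dimmest genes 94 of the 96 were fitted.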
